A study of Mus musculus with 14 samples.

Results

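Colony-stimulating factors (CSFs) are secreted proteins that keep blood cells of the myeloid lineage alive and make them divide and mature. CSF1, also called M-CSF, binds the tyrosine kinase receptor CSF1R, on which macrophages depend for survival. CSF2 (GM-CSF) binds a receptor made of the alpha chain CSF2RA and the common beta chain CSF2RB, which interleukin-3 and interleukin-5 receptors also use, while mice carry a second beta chain, CSF2RB2, that serves the interleukin-3 receptor, and CSF3 (G-CSF) binds CSF3R, best known from neutrophils.

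The genes described here are Csf1, Csf1r, Csf2ra, Csf2rb, Csf2rb2 and Csf3r, taken by gene name from the count table of 55414 genes as a readout of growth factor supply by live fibroblasts. All 6 passed the filter on low counts, as did 12851 genes in all. They were measured in 14 RNA libraries of primary bone marrow-derived macrophages (pBMDMs), prepared from C57BL/6N wildtype mice aged 6 to 9 weeks and differentiated with M-CSF. The pBMDMs of every group had M-CSF in the medium when they were plated. They then received filtered culture supernatant, or medium that had not been on cells, for 24 h. Whether M-CSF was given again with the supernatants is not stated in the sources used here.

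The supernatants came from Pfa1 mouse embryonic fibroblasts (MEFs), a single line in which 4-hydroxytamoxifen (4OHT) deletes the lipid peroxidase GPX4 and so triggers ferroptosis, an iron-dependent form of necrosis. The groups were supernatant of untreated MEFs (ctrl), of MEFs with 1 μM Ferrostatin-1, which blocks ferroptosis (Fer1), with 1 μM 4OHT and Ferrostatin-1 (4OHT+Fer1) and with 1 μM 4OHT alone (4OHT, the ferroptotic supernatant), each with 3 replicates, and medium without contact to MEFs (medium), with 2 replicates. ctrl, Fer1 and 4OHT+Fer1, 9 libraries together, are called live supernatants. GPX4 is deleted in the MEFs, whose RNA was not sequenced, so that the deletion cannot be checked in these libraries. The replicate number was taken to be the mouse. If it is not, p-values measure only the spread between these samples.

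The libraries held between 7823051 and 11052352 counts, and 3 counts, taken as the limit of detection, corresponded to between 0.272 and 0.381 counts scaled to library size (CPM). CPM here are scaled by edgeR's TMM factors, and because the libraries were primed at the poly(A) tail, a count does not grow with transcript length. The 11 macrophage markers were detected in every group, with a sum between 22576 and 47539 CPM per library. The 10 fibroblast markers summed to between 15.7 and 120 CPM, the 8 dendritic cell markers to at most 4.70 CPM, and the 10 neutrophil and granulocyte precursor markers to between 3.09 and 56.7 CPM. In a mixture, fewer cells of a type and less RNA per cell cannot be told apart.

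The position of the genes bears on how their reads were counted. Csf2rb and Csf2rb2 are related genes that lie 20030 bp apart on chromosome 15 of build GRCm38, Csf2rb at chr15:78325752-78353847 on the plus strand and Csf2rb2 at chr15:78282507-78305721 on the minus strand. Of the 50-base words in their longest transcripts, 18.4% of those of Csf2rb also occurred in Csf2rb2. In the last 500 bases, where poly(A)-primed reads start, 0 of 451 words were shared. Yet the estimated counts of both genes were not whole in 7 of 14 libraries. In ctrl replicate 2 they were 1966.642 and 1055.358, whose fractions make up a whole count. Some reads were thus divided between these genes. Csf1 (chr3:107741048-107760469), Csf2ra (chr19:61223957-61228429) and Csf3r (chr4:126024550-126044440) overlap no other annotated gene.

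One sequence feature was looked for in the promoters of the members, the core GAGGAA of the motif bound by PU.1, the factor encoded by Spi1 that drives macrophage and neutrophil genes. Promoters of 4 members, from 250 bases before to 50 after the gene start in RefSeq on GRCm38.p6, were searched on both strands. Csf1r and Csf2rb were not searched, as the promoter set held no entry for them. The core was in the promoters of Csf2ra, Csf2rb2 and Csf3r and not in this window of Csf1. These windows of 30 bases around it are shown 5′ to 3′ on the gene's strand, with the core, or its reverse complement TTCCTC, in capitals, because they show that the 3 receptor promoters carry it in different orientations and distances from the start.
Csf2ra, chr19:61228415-61228444, minus strand: caacctgcagatGAGGAAgaggaagcggga
Csf2rb2, chr15:78305675-78305704, minus strand: ggcactggcaacTTCCTCaatctgctctct
Csf3r, chr4:126024561-126024590, plus strand: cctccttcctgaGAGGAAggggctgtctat
In Csf2ra the core is repeated at once, and Csf2rb2 holds a further copy upstream of its start. The core was in 28.3% of all 32851 promoters of that length, and 4 promoters are too few to say whether the members differ from that share. A C/EBP motif, TTGCNNAA, was in 10.8% of promoters and in none of the 4. A match is a run of letters and not a measured binding site.

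Of the 6 members, the receptor genes Csf2rb and Csf3r passed in a comparison of groups. Csf2rb was higher in pBMDMs given ferroptotic supernatant than in those given live supernatants, and it was lower with live supernatants than with medium. Csf3r was lower with live supernatants than with medium, and it passed in no comparison between supernatants. Csf1 passed in none of the comparisons. These statements rest on the quasi-likelihood test of edgeR, adjusted by Benjamini-Hochberg (BH) over all 12851 genes, fitted to the 14 libraries with the replicate number as a block, and a gene is said to have passed at an adjusted p under 0.05.

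**Figure D1:**
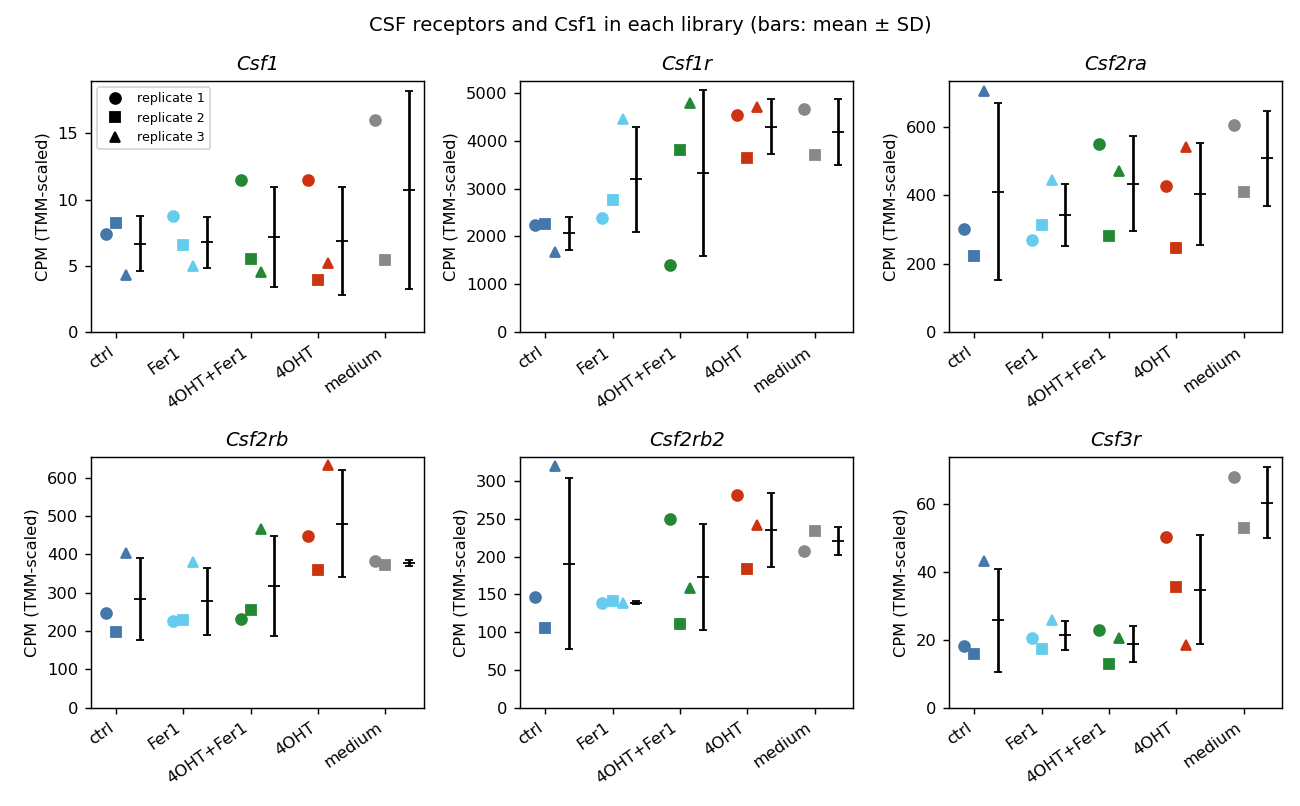
Level of each gene in every library, in CPM on a linear axis from 0, by group. Symbols mark the replicate number and black bars the mean ± SD of the group. Csf3r in both medium libraries (52.8 and 67.7 CPM) lies above every other library, and Csf2rb in each 4OHT library lies above the live libraries of the same replicate number.

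Before the members are taken in turn, a pair of libraries has to be named that stood apart in these genes. In ctrl replicate 3 and 4OHT+Fer1 replicate 1, Csf1r was at its lowest of their groups, with 1671 and 1409 CPM, while Csf2ra was at its highest, with 706 and 551 CPM. Their ratios of Csf1r to Csf2ra were 2.37 and 2.56, against 7.43 to 14.8 in the other 12 libraries. Over all genes, they also deviated most from the fit, with root mean square residuals of 0.418 and 0.389 on the log2 scale, the other 12 libraries lying between 0.247 and 0.379. What set them apart was not tested, and the fold changes of the members are given with both and without both.

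**Figure D2:**
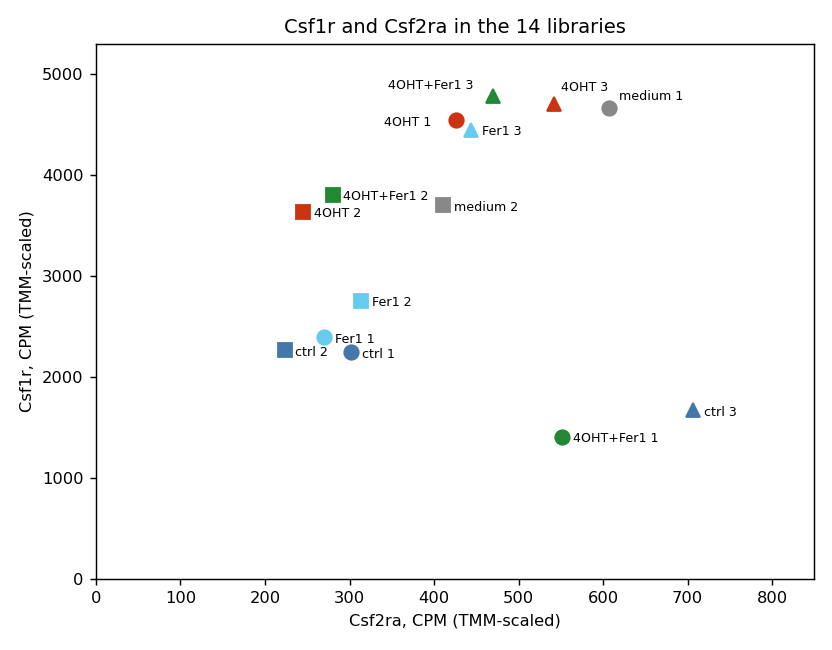
Csf1r against Csf2ra in the 14 libraries, both in CPM on linear axes, coloured by group with the replicate number as symbol and label. ctrl 3 (706 CPM Csf2ra, 1671 CPM Csf1r) and 4OHT+Fer1 1 (551 and 1409 CPM) lie to the lower right, apart from the others.

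Csf1, the ligand of CSF1R, was low. Its levels in replicates 1, 2 and 3 were 7.39, 8.24 and 4.31 CPM in ctrl, 8.73, 6.57 and 4.96 CPM in Fer1, 11.5, 5.52 and 4.50 CPM in 4OHT+Fer1, 11.5, 3.90 and 5.19 CPM in 4OHT, and 16.0 and 5.45 CPM in medium replicates 1 and 2. All groups overlapped, and the highest library of 4 of the groups was replicate 1. Estimated counts were between 39 and 126 per library.

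The log2 fold change of Csf1 was -0.079 (SE 0.32, edgeR BH-adjusted p = 0.966) in 4OHT against ctrl and -0.32 (SE 0.30, edgeR BH-adjusted p = 0.562) in live supernatants against medium. Both differences were about as large as their standard errors or smaller, also without the pair of libraries that stood apart (-0.17, SE 0.37, and -0.35, SE 0.32). The sign of each changed when single libraries or replicates were left out, between -0.43 and 0.47 for the former and between -0.78 and 0.19 for the latter.

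The other ligands of these receptors were nearly absent from pBMDM RNA. Il34, the second ligand of CSF1R, had between 0 and 1.14 CPM and was at 0 in 4 libraries. Csf2, Csf3, Il3 and Il5, the ligands of CSF2RA, CSF3R and the interleukin-3 and interleukin-5 receptors, had 0 counts in all 14 libraries, which allows up to 0.381 CPM in the library with the highest limit. What the MEFs released was not measured in these libraries.

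Csf1r (chr18:61100598-61132149, plus strand) encodes the CSF1 receptor, is itself one of the macrophage markers and overlaps Hmgxb3 on the opposite strand by 873 bp. It had 2244, 2263 and 1671 CPM in ctrl, 2393, 2754 and 4449 CPM in Fer1, 1409, 3806 and 4783 CPM in 4OHT+Fer1, 4544, 3634 and 4708 CPM in 4OHT, and 4670 and 3701 CPM in medium. The ctrl libraries were low and close together, below every Fer1, 4OHT and medium library. The gap to Fer1 was narrow, from 2263 CPM in ctrl replicate 2 to 2393 CPM in Fer1 replicate 1. Fer1 against ctrl did not pass (log2 fold change 0.56, SE 0.34), and the share of all genes with non-overlapping groups there was not computed. In Fer1 and 4OHT+Fer1 the libraries were spread between levels near or below ctrl and those of 4OHT, and both groups overlapped 4OHT.

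Every 4OHT library exceeded every ctrl library in Csf1r, and 11.0% of all genes tested had non-overlapping groups in this comparison. The log2 fold change was 1.03 (SE 0.34), but it did not pass (edgeR BH-adjusted p = 0.219). With both libraries that stood apart left out it was 0.77 (SE 0.18, edgeR BH-adjusted p = 0.0598), and with 4OHT+Fer1 replicate 1 alone left out it was 1.03 and passed (edgeR BH-adjusted p = 0.0372). By replicate number 1, 2 and 3, log2 CPM in 4OHT exceeded that in ctrl by 1.02, 0.68 and 1.49.

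Csf1r in 4OHT had, relative to 4OHT+Fer1, a log2 fold change of 0.44 (SE 0.34, edgeR BH-adjusted p = 0.701). This value rested on replicate 1, where the difference in log2 CPM was 1.69, since it was -0.067 and -0.023 in replicates 2 and 3. Without the pair of libraries it was 0.065 (SE 0.18, edgeR BH-adjusted p = 0.896). The order of the mean levels was 4OHT (4296 ± 579 CPM, SD, n = 3), medium (4185 ± 685 CPM, SD, n = 2), 4OHT+Fer1 (3333 ± 1736 CPM, SD, n = 3), Fer1 (3199 ± 1098 CPM, SD, n = 3) and ctrl (2059 ± 337 CPM, SD, n = 3). In this order each group's range of libraries overlapped that of the next, except Fer1 and ctrl.

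In live supernatants against medium, the log2 fold change of Csf1r was -0.75 (SE 0.32, edgeR BH-adjusted p = 0.149), and without the pair of libraries it was -0.51 and passed (SE 0.16, edgeR BH-adjusted p = 0.0404). ctrl alone against medium gave -1.13 (SE 0.37, edgeR BH-adjusted p = 0.0752), with no overlap between the groups, as for 34.5% of all genes in a comparison of 3 libraries with 2. The value was -0.85 without the pair (SE 0.19, edgeR BH-adjusted p = 0.0132). 4OHT and medium had a log2 fold change of -0.099 (SE 0.38, edgeR BH-adjusted p = 0.955), and -0.077 without the pair (SE 0.18, edgeR BH-adjusted p = 0.866).

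Csf2ra, the alpha chain that binds GM-CSF, had 302, 223 and 706 CPM in ctrl, 270, 313 and 443 CPM in Fer1, 551, 280 and 470 CPM in 4OHT+Fer1, 426, 246 and 541 CPM in 4OHT, and 606 and 410 CPM in medium. All 5 groups overlapped, and the lowest libraries were replicate 2 in 4 of the groups. The mean ± SD was between 342 ± 90.2 CPM in Fer1 (n = 3) and 508 ± 139 CPM in medium (n = 2).

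Csf2ra did not pass in any comparison of 4OHT with other MEF supernatants, with log2 fold changes of 0.051 (SE 0.25, edgeR BH-adjusted p = 0.972) against ctrl, -0.15 (SE 0.25, edgeR BH-adjusted p = 0.904) against 4OHT+Fer1 and 0.025 (SE 0.21, edgeR BH-adjusted p = 0.980) against live supernatants. Without the pair of libraries these values were 0.36, 0.11 and 0.22, and none passed (edgeR BH-adjusted p = 0.451, 0.810 and 0.406). Live supernatants were below medium by a log2 fold change of -0.65, which did not pass (SE 0.24, edgeR BH-adjusted p = 0.0946). Without the pair of libraries that stood apart, the value was -0.77 and passed (SE 0.16, edgeR BH-adjusted p = 0.00559). Of single libraries left out, ctrl replicate 3, Fer1 replicate 2 or 4OHT+Fer1 replicate 1 also let it pass (edgeR BH-adjusted p = 0.0219, 0.0377 and 0.0283).

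Csf2rb, the common beta chain that carries the signal of the GM-CSF, interleukin-3 and interleukin-5 receptors, had 247, 198 and 403 CPM in ctrl, 225, 229 and 379 CPM in Fer1, 232, 254 and 467 CPM in 4OHT+Fer1, 449, 360 and 632 CPM in 4OHT, and 383 and 372 CPM in medium. Replicate 3 was the highest of every group that had one. Groups therefore overlapped across replicate numbers, while within each number the 4OHT library was the highest of the MEF supernatants.

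In 4OHT against ctrl, Csf2rb was the 1 of 6 members that passed, beside 1.49% of all genes tested. It rose with a log2 fold change of 0.79 (SE 0.14, edgeR BH-adjusted p = 0.0174), which is below the absolute log2 fold change of 1 that the study also required for a call. The differences in log2 CPM within replicates 1, 2 and 3 were 0.86, 0.86 and 0.65. Without the pair of libraries that stood apart it was 0.83 (SE 0.13, edgeR BH-adjusted p = 0.00863). A fit with no replicate block gave nearly the same value, 0.76, which did not pass (edgeR BH-adjusted p = 0.684).

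The call did not pass either without replicate 1 or 2 of ctrl or of 4OHT (edgeR BH-adjusted p = 0.067, 0.105, 0.103 and 0.0617) or in a fit of the 2 groups alone (edgeR BH-adjusted p = 0.271). It was kept by DESeq2 (adjusted p = 9.04e-06). With the counts of Csf2rb and Csf2rb2 summed, the log2 fold change was 0.66 (edgeR BH-adjusted p = 0.0847).

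Against 4OHT+Fer1, Csf2rb was again the 1 member of 6 that passed, beside 1.35% of all genes. The log2 fold change was 0.63 (SE 0.14, edgeR BH-adjusted p = 0.0469), with differences in log2 CPM of 0.95, 0.50 and 0.44 within replicates 1, 2 and 3. Among single libraries left out in turn, the call was kept only without ctrl replicate 3 or 4OHT replicate 3 and was lost without any of the other 12. It was lost in 20 of 26 alternative settings in all, without the pair of libraries that stood apart among them (log2 fold change 0.53, edgeR BH-adjusted p = 0.0706) and the fit with no replicate block (0.60, edgeR BH-adjusted p = 0.737).

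Neither 4OHT+Fer1 nor Fer1 alone moved a member past the threshold against ctrl. Of all genes, 4 (0.0311%) and 0 (0%) passed in these comparisons, 554 and 146 genes had an unadjusted p under 0.05, and DESeq2 called 21 and 8. No member had an unadjusted p under 0.05 in either. The effect of 4OHT without Ferrostatin-1 minus that with it was 0.62 for Csf2rb on the log2 scale (SE 0.19, edgeR BH-adjusted p = 0.482) and 0.99 for Csf1r (SE 0.47, edgeR BH-adjusted p = 0.846), so that this difference itself passed for neither, and 0.0311% of all genes passed. The value of Csf1r rested on the libraries that stood apart, since it was 0.60 without 4OHT+Fer1 replicate 1 and 0.37 without both (SE 0.25, edgeR BH-adjusted p = 0.583), whereas that of Csf2rb was 0.57 without both (SE 0.18, edgeR BH-adjusted p = 0.285).

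Against the 9 live libraries jointly, 4OHT raised Csf2rb by a log2 fold change of 0.74 (SE 0.11, edgeR BH-adjusted p = 0.00408). It was the 1 member that passed, beside 2.95% of all genes. Across replicate numbers 1, 2 and 3, the difference in log2 CPM between 4OHT and each live library of the same number was between 0.44 and 1.00 and was positive in all 9 pairs. These pairs reuse the 3 libraries of 4OHT and are not independent. The share of all genes with 1 sign in every such pair was not computed, and across replicate numbers the groups overlapped. Without the pair of libraries that stood apart, the value was 0.72 (SE 0.091, edgeR BH-adjusted p = 0.00129). This call was kept with each of the 14 libraries left out in turn, with edgeR BH-adjusted p-values of at most 0.0481. It was lost in 3 of 26 alternative settings. Among these were a fit with no replicate block (0.72, edgeR BH-adjusted p = 0.359) and leaving out a whole replicate number.

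Csf2rb was also lower in live supernatants when these were compared with medium. In live supernatants against medium, 2 members passed, Csf2rb and Csf3r, beside 14.7% of all genes. Csf2rb fell with a log2 fold change of -0.69 (SE 0.13, edgeR BH-adjusted p = 0.00348), and in replicates 1 and 2, which have a medium library, each live library differed from the medium library by between -0.91 and -0.55 in log2 CPM. A fit with no replicate block gave -0.37 (edgeR BH-adjusted p = 0.590) and did not pass. The live libraries of replicate 3 were the highest of their groups, and medium has no replicate 3. Without medium replicate 2 it was -0.63 (edgeR BH-adjusted p = 0.0920), and without the pair of libraries that stood apart -0.62 (SE 0.11, edgeR BH-adjusted p = 0.00208).

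For ctrl alone against medium, Csf2rb had a log2 fold change of -0.75 and was the 1 member that passed (SE 0.16, edgeR BH-adjusted p = 0.00900), beside 10.9% of all genes. It no longer passed without ctrl replicate 2 or medium replicate 1 or 2 (edgeR BH-adjusted p = 0.0596, 0.0679 and 0.105), nor in a fit with no replicate block (-0.42, edgeR BH-adjusted p = 0.669). Without the pair it was -0.73 (SE 0.14, edgeR BH-adjusted p = 0.00390). For 4OHT against medium, no member passed, beside 4.26% of all genes. There the log2 fold change of Csf2rb was 0.047 (SE 0.16, edgeR BH-adjusted p = 0.951), and 0.10 without the pair (SE 0.13, edgeR BH-adjusted p = 0.715). The values of 4OHT and medium for this gene differed by 0.23 and -0.047 in log2 CPM within replicates 1 and 2.

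Markers of cell types also differed between live supernatants and medium. Of the 11 macrophage markers, Adgre1 (-0.77), Mertk (-0.71) and Fcgr1 (-0.69) fell and Mrc1 rose (2.09). Of 4 fibroblast markers tested, Col1a2 (-0.96) and Prrx1 (-1.70) fell, and the sum of the 10 listed was 35.7 and 108 CPM in medium and between 15.7 and 120 CPM in live supernatants. The 8 dendritic cell markers, of which none was abundant enough to be tested, summed to 3.89 and 4.70 CPM in medium and to between 0.614 and 1.69 CPM in live supernatants. Of these 6 calls, that of Mrc1 was kept with each library left out in turn, and the others were lost without 1 or both medium libraries, Fcgr1 also without some of the live libraries. The part of such cells in the level of Csf2rb was not tested.

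The comparisons of Csf2rb share libraries, so that the rise in 4OHT against live supernatants and the fall in live supernatants against medium both draw on the same 9 live libraries.

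**Figure D3:**
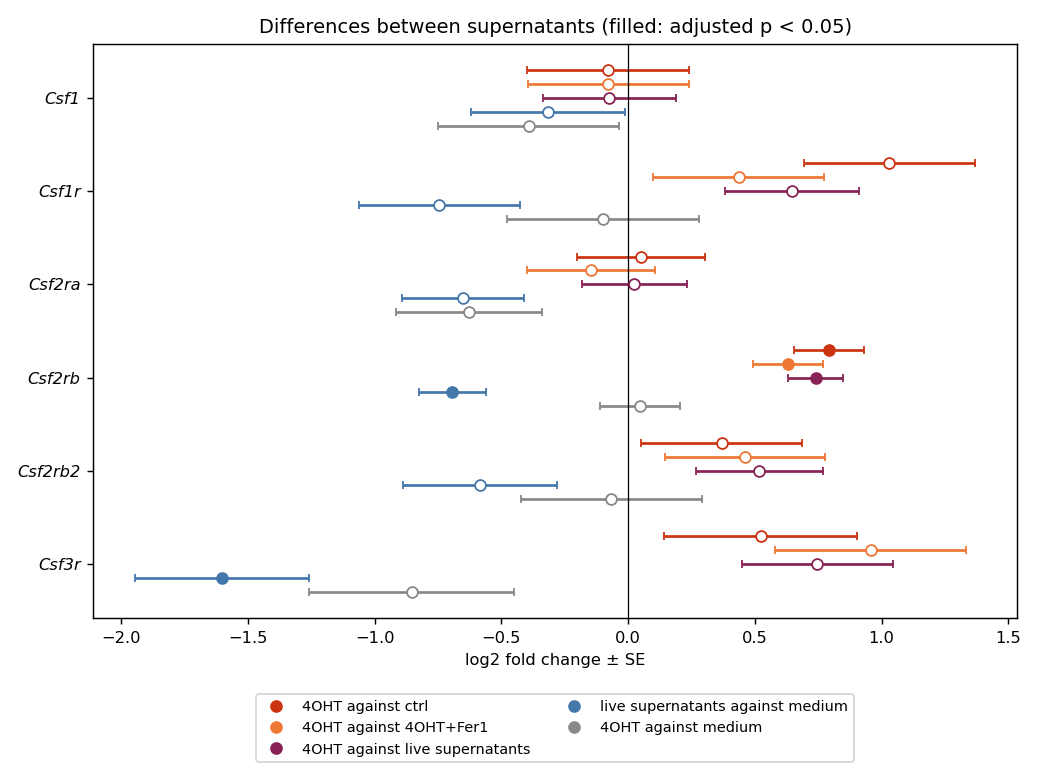
Log2 fold change ± SE of each gene in 5 comparisons, on a linear axis. Filled points passed (edgeR BH-adjusted p under 0.05). Csf2rb is filled in 4OHT against ctrl (0.79), 4OHT+Fer1 (0.63) and live supernatants (0.74) and in live supernatants against medium (-0.69), and Csf3r in live supernatants against medium (-1.60). The comparisons share libraries and are not independent.

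Csf2rb2, the beta chain of mouse that serves interleukin-3, had 146, 106 and 320 CPM in ctrl, 138, 141 and 138 CPM in Fer1, 250, 111 and 158 CPM in 4OHT+Fer1, 281, 184 and 242 CPM in 4OHT, and 208 and 234 CPM in medium. Fer1 was low with hardly any spread, whereas ctrl replicate 3 was the highest of all libraries. Every 4OHT and medium library exceeded every Fer1 library, and the other groups overlapped. The share of all genes that lie apart in these comparisons was not computed. In comparisons of the same size it was 11.0% (4OHT against ctrl) and 34.5% (ctrl against medium).

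The log2 fold change of Csf2rb2 in 4OHT was 0.37 (SE 0.32, edgeR BH-adjusted p = 0.787) against ctrl and 0.52 (SE 0.25, edgeR BH-adjusted p = 0.395) against live supernatants. Both passed without the pair of libraries that stood apart, with log2 fold changes of 0.86 (SE 0.18, edgeR BH-adjusted p = 0.0379) and 0.79 (SE 0.13, edgeR BH-adjusted p = 0.00454). In 4OHT against 4OHT+Fer1 the log2 fold change was 0.46 (SE 0.32, edgeR BH-adjusted p = 0.641), and it passed in none of the 25 alternative settings. Live supernatants were below medium by -0.58 (SE 0.30, edgeR BH-adjusted p = 0.240), and without the pair by -0.73 (SE 0.15, edgeR BH-adjusted p = 0.00589). With ctrl replicate 3 alone left out, 4OHT against live supernatants gave 0.70 and live supernatants against medium -0.65, and both passed (edgeR BH-adjusted p = 0.0339 and 0.0406).

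Csf2rb2 made up 38.6% of the summed counts of both beta chains in medium replicate 2 and 35.2% in replicate 1. In the MEF supernatants the share ran from 25.3% in 4OHT+Fer1 replicate 3 to 51.8% in 4OHT+Fer1 replicate 1. That highest share belongs to a library that stood apart, as does the second highest, 44.3% in ctrl replicate 3. The group means were close together, from 33.3% ± 5.45 in 4OHT (SD, n = 3) to 38.8% ± 4.88 in ctrl (SD, n = 3).

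Csf3r, the G-CSF receptor, had 18.2, 15.8 and 43.2 CPM in ctrl, 20.4, 17.3 and 25.9 CPM in Fer1, 22.8, 12.7 and 20.6 CPM in 4OHT+Fer1, 50.3, 35.4 and 18.3 CPM in 4OHT, and 67.7 and 52.8 CPM in medium. Both medium libraries lay above all 12 others. In 4OHT, replicates 1 and 2 lay above every live library except ctrl replicate 3 in the case of replicate 2, whereas 4OHT replicate 3 was at the level of the live libraries.

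In live supernatants against medium, Csf3r had the largest change of the members, with a log2 fold change of -1.60 (SE 0.34, edgeR BH-adjusted p = 0.00748), and it was the 1 member whose change also exceeded 1 in size, beside 8.89% of all genes. The groups did not overlap, which held for 18.4% of all genes. Leaving out the pair of libraries that stood apart gave -1.63 (SE 0.28, edgeR BH-adjusted p = 0.00164). With 1 medium library left out, replicate 1 or 2, it was -1.66 or -1.53 and no longer passed (edgeR BH-adjusted p = 0.0855 and 0.110).

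Between live supernatants and medium, markers of neutrophils and their precursors moved with Csf3r. All 4 of the 10 listed markers that were tested fell in live supernatants against medium, with log2 fold changes of -1.52 for S100a8 and -1.54 for S100a9, which encode calcium-binding proteins abundant in neutrophils, -2.30 for Camp and -2.16 for Ngp, which encode proteins of neutrophil granules. Camp had at most 1.65 CPM and was at 0 in 4 libraries, and Ngp was at 0 in 3 libraries. The call of Camp was lost in 12 of 25 alternative settings, and the others were lost without medium replicate 2, S100a9 also without medium replicate 1. The summed level of the 10 markers was 39.1 and 56.7 CPM in medium, between 3.09 and 18.0 CPM in live supernatants and between 4.30 and 28.2 CPM in 4OHT. By library the sum did not always follow Csf3r. The lowest sum, 3.09 CPM, was in ctrl replicate 3, the live library with the most Csf3r (43.2 CPM). Within 4OHT, replicate 3 was lowest in both (4.30 and 18.3 CPM). Ly6g and Elane, defining genes of neutrophils and their precursors, had 0 counts in all 14 libraries. The part of such cells in the level of Csf3r was not tested.

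The log2 fold change of Csf3r in 4OHT was 0.52 (SE 0.38, edgeR BH-adjusted p = 0.727) against ctrl, 0.96 (SE 0.38, edgeR BH-adjusted p = 0.326) against 4OHT+Fer1 and 0.75 (SE 0.30, edgeR BH-adjusted p = 0.277) against live supernatants. The replicates went in different directions. 4OHT minus ctrl was 1.45 and 1.15 in log2 CPM for replicates 1 and 2 and -1.22 for replicate 3. The last pair holds ctrl replicate 3, and without both libraries that stood apart the log2 fold change against ctrl was 1.03 (SE 0.33, edgeR BH-adjusted p = 0.171), that against 4OHT+Fer1 0.93 (SE 0.35, edgeR BH-adjusted p = 0.209) and that against live supernatants 0.88 (SE 0.24, edgeR BH-adjusted p = 0.0556). Against ctrl, leaving out single libraries or replicate numbers moved the value between 0.044 without replicate 1 and 1.30 without replicate 3, where it passed (edgeR BH-adjusted p = 0.0137), and of single libraries ctrl replicate 1 lowered it most, to 0.21. With 4OHT replicate 3 left out, the values against 4OHT+Fer1 and live supernatants were 1.43 and 1.25 and passed (edgeR BH-adjusted p = 0.0147 and 0.00765), and with ctrl replicate 3 left out the latter was 0.87 and passed (edgeR BH-adjusted p = 0.0467). Every 4OHT library lay below both medium libraries, and 28.6% of all genes had non-overlapping groups in that comparison, with a log2 fold change of -0.85 (SE 0.40, edgeR BH-adjusted p = 0.338) and of -0.75 without the pair (SE 0.31, edgeR BH-adjusted p = 0.192).

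Seen as a group, the 6 members had log2 fold changes below 0 in live supernatants against medium, with a median of -0.67 where all genes tested had a median of -0.016. In 4OHT against live supernatants, 5 of 6 were above 0, with a median of 0.58 against 0.015 for all genes. Without the pair of libraries that stood apart, a choice made after seeing the data, 5 of the 6 passed in live supernatants against medium, all but Csf1, beside 21.6% of all genes, and 2 passed in 4OHT against live supernatants, Csf2rb and Csf2rb2, beside 5.72%. In that setting 2.15% of all genes passed in 4OHT against ctrl and 15.1% in ctrl against medium. The members are not independent, since some reads were divided between Csf2rb and Csf2rb2, and all share the same libraries.

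The members did not follow each other closely across the 14 libraries. Pearson's r of log2 CPM was highest between Csf2ra and Csf2rb2 (0.76) and between Csf2rb2 and Csf3r (0.70), was 0.64 between Csf1r and Csf2rb, and was 0.044 between Csf1r and Csf2ra. Csf1 had an r between -0.30 and 0.25 with each receptor. The points share groups and replicate numbers, so these values are descriptions. They include both libraries that stood apart, and no r was computed without them.

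Among all genes tested, predicted genes left out, those most like a member by Pearson's r over the 14 libraries were for Csf1r Bri3 (0.96), Per1 (0.94), a clock gene, and Clasp2 (0.92), which encodes a microtubule-binding protein. For Csf2rb they were Vsir (0.97), which encodes the immune checkpoint protein VISTA, Slc16a6 (0.96) and Nfkb2 (0.95), a subunit of the transcription factor NF-kappaB. For Csf3r they were Zfp36 (0.96), which encodes a protein that promotes decay of cytokine mRNA, Nadk (0.95), which encodes NAD kinase, and Arhgap17 (0.95). The genes most like Csf1r had their lowest levels in the libraries that stood apart, Bri3 in ctrl replicate 3 and Per1 and Clasp2 in 4OHT+Fer1 replicate 1.

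For Csf2ra the genes most alike were Ppp4r1l-ps (0.94), Igsf6 (0.92) and Wasl (0.92), which encodes an activator of actin assembly. For Csf2rb2 they were Zfp263 (0.96), Ly96 (0.94), which encodes the TLR4 partner MD-2, and Lmbrd1 (0.94). Csf1 had the weakest partners, Ccdc25 (0.89), Uhrf1bp1 (0.86) and Ube2d2a (0.85). Ppp4r1l-ps, Wasl, Zfp263 and Lmbrd1 were highest in ctrl replicate 3, and Igsf6 was highest in 4OHT+Fer1 replicate 1. Both are the libraries that stood apart, and no r was computed without them.

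The wider pathway was read from 8 lists of ligands, alpha chains, signalling genes, their inhibitors, proteases that shed CSF1R, JAK-STAT genes, transcription factors and growth response genes. They hold 83 genes, Csf1 and Csf2ra among them, of which 74 were tested. In live supernatants against medium, 17 of these passed, which is 23.0% beside 14.7% of all genes, 15 lower and 2 higher. The median log2 fold change of the 74 was -0.22. Of the 17 calls, 16 were kept without the pair of libraries that stood apart, all but Il3ra. With each of the 14 libraries left out in turn, 3 were kept throughout, those of Cebpa, Fos and Lyn, and the other 14 were lost without 1 or both of the medium libraries. Of these, Bcl2l1, Egr2, Il3ra, Mcl1 and Src were also lost without some of the MEF supernatant libraries.

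Of 18 CSF1R signalling and adaptor genes tested, 3 fell with live supernatants against medium and none rose. They were Lyn (-0.95, SE 0.12, edgeR BH-adjusted p = 0.000242), a kinase of the Src family, Src itself (-1.83), which had at most 2.66 CPM and whose call was lost in 14 of 26 alternative settings, and Pik3r1 (-0.55), the regulatory subunit of PI3 kinase. The adaptor genes Tyrobp and Grb2 and the kinase gene Mapk3, among the highest of this list, did not pass, with log2 fold changes of -0.42, -0.37 and 0.086. In 4OHT against ctrl, none of the 18 passed.

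Of 8 negative regulators of CSF1R signalling, Dok2 (-1.40), an adaptor that dampens kinase signals, and Socs1 (-1.95, edgeR BH-adjusted p = 0.00345), an inhibitor of cytokine receptors, fell. Ptpn6 (the phosphatase SHP-1), Cbl (a ubiquitin ligase that marks CSF1R for degradation) and Inpp5d (the phosphatase SHIP1) had log2 fold changes of -0.71, -0.26 and -0.083 and did not pass. Of 4 genes for the proteases that shed CSF1R and their partners none passed, Adam17 having -0.28 and Adam10 -0.42.

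Of 15 genes of the JAK-STAT pathway, 4 fell and 1 rose. Jak2 (-0.80), the kinase bound to CSF2RB, Tyk2 (-0.49), Socs2 (-1.74), a feedback inhibitor, and Mcl1 (-0.46), a survival factor, fell, whereas Bcl2l1 (1.18), which encodes the survival factor BCL-XL, rose. Jak1, Pim1 and Stat3 had log2 fold changes of -0.16, -0.041 and -0.042 and did not pass. Of the alpha chains that pair with the common beta chain, Il3ra fell (-0.56, edgeR BH-adjusted p = 0.0491), a call lost in 17 of 26 alternative settings, and Il5ra, with at most 0.314 CPM, was not tested.

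Of 14 transcription factors, 3 fell and 1 rose. Cebpa, which encodes C/EBP-alpha, a factor that drives myeloid genes including Csf3r and Csf2ra, fell with a log2 fold change of -1.42 (SE 0.12, edgeR BH-adjusted p = 1.61e-05), Fos with -2.01 and Egr2 with -1.29, while Runx3 rose (1.30). Spi1 and Irf8, which encode factors of macrophage identity, did not pass, with -0.46 and -0.43. Of 12 growth response genes tested, Egr1 (-2.39) and Junb (-1.03), which respond at once to growth factors, fell, and Ccnd1 and Ccnd2, the cyclin D genes, had log2 fold changes of -0.42 and 0.0080 and did not pass.

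With ferroptotic supernatant few of these genes moved. In 4OHT against ctrl, 1 of 74 passed, which is 1.35% beside 1.49% of all genes. It was Cebpa, which was higher with a log2 fold change of 0.71 (SE 0.13, edgeR BH-adjusted p = 0.0197). This call was lost in 9 of 26 alternative settings, with replicate 1 or 2 of ctrl or of 4OHT left out among them. In 4OHT against live supernatants, 3 of 74 passed, Cebpa (0.63) and Fos (1.06) higher and Runx3 (-1.01) lower, which is 4.05% beside 2.95% of all genes. The call of Runx3 was lost in 15 of 26 alternative settings and with 11 of the 14 libraries left out in turn, that of Fos in 6, without 4OHT replicate 2 or 3 among them, and that of Cebpa in 4, without 4OHT replicate 1 among them. Of the macrophage markers, Adgre1, which encodes F4/80, was higher in 4OHT against live supernatants (0.49, edgeR BH-adjusted p = 0.0424), a call lost in 16 of 26 alternative settings and with 11 of the 14 libraries left out in turn. It was lower in live supernatants against medium (-0.77), a call lost without medium replicate 2.

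**Figure D4:**
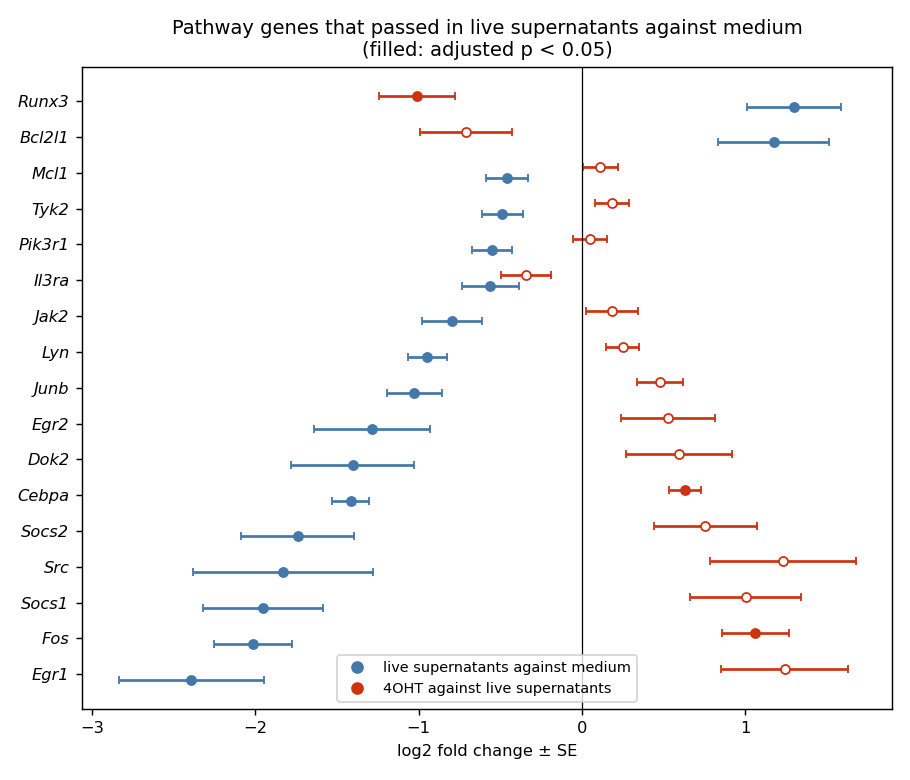
Log2 fold change ± SE, on a linear axis, of the 17 pathway genes that passed in live supernatants against medium (blue), with their values in 4OHT against live supernatants (red). Filled points passed. Of the red points, Cebpa (0.63), Fos (1.06) and Runx3 (-1.01) are filled. Both comparisons use the 9 live libraries, so opposite signs are not independent of each other.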

How the data were processed

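The 14 pBMDM libraries were made by priming at the poly(A) tail. STAR 2.7.10a and Salmon 1.5.2 were used by the authors to align and quantify, and the estimated counts per gene were deposited by the authors without scaling. The submitters' notes name builds of mouse and human, and the identifiers are those of mouse genes. Coordinates are from the GRCm38 annotation. A further table holds the authors' fold changes, p-values and 14 columns of per-sample CPM, which were not used here.

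Counts were rounded, scaled by TMM and fitted with edgeR 4.0.16 (R 4.3.3), with genes kept by filterByExpr at a minimum count of 10. CPM are TMM-scaled, and log2 CPM used a prior count of 2. The block follows the study's methods, which have the mouse in the design. Deviations of log2 CPM from the group mean had a median correlation of 0.25 between same-numbered libraries (26 pairs, 21 over 0.1) and of -0.14 between others (52 pairs). Such deviations cancel out within a group, so the latter value is not independent of the former. Alternatives were DESeq2 1.42.0, other filters, scalings and samples, and each library left out. Leaving out both libraries that stood apart was chosen after seeing the data.

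Members and lists were chosen with earlier results of these data known, and 2 list genes are not reported here. Genes named are the members, list genes that passed in 4OHT against ctrl or live supernatants against medium, at most 4 others per list by level, and the 3 genes most like each member. In simulated counts for 4OHT against ctrl (12570 genes), edgeR recovered 71% of 2-fold and 100% of 4-fold changes, with 5 false calls. The simulation had no replicate effect and no libraries that stood apart, and only well expressed genes were changed. These rates therefore need not hold for the real libraries. Limits from counts cover counting error only, since PCR duplicates were not told apart.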

Additional observations from a re-analysis of the deposited data

How the results depend on the processing

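The count of members that passed moved with several choices. In 4OHT against ctrl it was 1, and 0 with no replicate block, with only the groups compared or with Csf2rb and Csf2rb2 summed, and 2 with no filter on low counts or without both libraries that stood apart. In 4OHT against 4OHT+Fer1 it was 1, and 0 with no replicate block, no scaling factors, no filter, only the groups compared, the beta chains summed, or without both libraries. In ctrl against medium it was 1, 3 with DESeq2 or no filter, 5 with only the groups compared or without both libraries, and 0 with no replicate block. In 4OHT against medium it was 0, and 2 with only the groups compared. In live supernatants against medium it was 2, 1 with no replicate block and 5 without both libraries. In 4OHT against live supernatants it was 1, 0 with no replicate block and 2 without both libraries. Leaving out single libraries or replicate numbers gave 0 to 2, 0 to 2, 0 to 3, 0 to 0, 0 to 4 and 0 to 3 in these 6 comparisons, in this order. In Fer1 and 4OHT+Fer1 against ctrl and for the difference of the 4OHT effects, it was 0 in all 26 alternatives. Where a count moved, the cause was not tested.

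Signs changed for small differences. With no replicate block, the log2 fold change in 4OHT against ctrl was 0.042 for Csf1 and -0.022 for Csf2ra, and that of Csf1r in 4OHT against medium was 0.037. Csf2ra in 4OHT against 4OHT+Fer1 was 0.11 without both libraries. With libraries or replicate numbers left out, the log2 fold change ranged from -0.43 to 0.47 for Csf1 and -0.15 to 0.40 for Csf2ra in 4OHT against ctrl, from -0.029 to 0.73 for Csf1r and -0.35 to 0.14 for Csf2ra in 4OHT against 4OHT+Fer1, from -0.35 to 0.23 for Csf1r and -0.069 to 0.13 for Csf2rb in 4OHT against medium, from -0.78 to 0.19 for Csf1 in live supernatants against medium, and from -0.072 to 0.15 for Csf2ra in 4OHT against live supernatants.

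The log2 fold change of Csf2rb kept its sign in all 26 alternatives in 4OHT against ctrl (0.66 to 0.86), 4OHT+Fer1 (0.49 to 0.75) and live supernatants (0.64 to 0.81) and in live supernatants against medium (-0.37 to -0.74), and it passed in 17, 6, 23 and 22 of them. Over all genes, 192 passed in 4OHT against ctrl, 402 with DESeq2, 325 with no filter, 7 with no replicate block and 0 with only the groups compared. In 4OHT against 4OHT+Fer1, 174 passed, 368 with DESeq2, 285 with no filter, 20 with no replicate block and 37 with only the groups compared. In live supernatants against medium, 1886 passed and 959 with no replicate block, in ctrl against medium 1396 passed, 523 with no replicate block and 2488 with only the groups compared, in 4OHT against medium 548 passed, 829 with DESeq2, 104 with no replicate block and 1470 with only the groups compared, and in 4OHT against live supernatants 379 passed, 665 with DESeq2 and 109 with no replicate block. In 4OHT+Fer1 against ctrl 4 passed, 21 with DESeq2 and 10 with no filter, and for the difference of the 4OHT effects 4 passed, 86 with DESeq2 and 32 with no filter.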
